A study of Mus musculus with 56 samples.

Results

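The genes described here are the 10 members of the MHC class I presentation pathway that the array carries under the symbols B2m, H2-K1, H2-D1, Tap1, Tap2, Tapbp, Psmb8, Psmb9, Psmb10 and Nlrc5. The rule names them by symbol and uses no measured value, although earlier results of these data were known when the list was made. Each is represented by the probe set with the highest mean over 56 arrays. All 10 were among the 12508 genes tested. They had 27 probe sets with a single gene symbol, of which 23 passed the filter on dim values. The study profiled 56 mammary tumors of BALB/c mice, each grown from a p53null mammary fragment that had itself received no radiation. The fragments were transplanted into the inguinal fat pads of female hosts, cleared of their own mammary epithelium at 3 weeks old and irradiated or sham-irradiated 3 days before transplantation. The 4 groups were tumors of sham-irradiated wild-type hosts (n = 9), irradiated wild-type hosts (n = 23), sham-irradiated Tgfb1 heterozygote hosts (n = 6) and irradiated Tgfb1 heterozygote hosts (n = 18). The comparison asked whether irradiation of the host, with its Tgfb1 genotype held fixed, went with a different level of the class I genes in the tumor that arose. All hosts thus carried a p53null transplant, and no group held a tumor with intact p53. The radiation dose is not given in the labels, nor whether any tumors shared a host, so the spread behind each p-value is that between arrays and may be partly technical.

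MHC class I molecules display short peptides from inside the cell to CD8 T cells and are sensed by natural killer cells. The immunoproteasome cuts proteins into peptides, the TAP transporter moves the peptides into the endoplasmic reticulum, and tapasin holds an empty heavy chain with its light chain beta-2-microglobulin beside the transporter until a peptide binds. Interferons raise the transcription of the whole set, with NLRC5 and IRF1 among the factors that act on the promoters, and tumors of many kinds are known to vary in how much of the pathway they express.

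Values are log2 expression after RMA, a scale on which 1 unit is a doubling, and the level of a probe set says nothing against the level of another, since probes differ in brightness. Array medians ran from 5.92 to 6.00 in wild-type hosts and from 5.57 to 5.71 in heterozygote hosts, and no level was compared from one host genotype to the other; the labels do not say whether the arrays were normalized in 1 or 2 sets. Epcam, an epithelial adhesion gene, had group medians of 13.28 to 13.50, but several tumors were far lower. In wild-type hosts it was 7.40, 8.32 and 9.46 in tumors 59, 11 and 25 (irradiated) and 8.70 and 11 in tumors 60 and 46 (sham). In heterozygote hosts it was 10.65 and 11.15 in tumors 29 and 7 (irradiated) and 10.93 and 11.52 in tumors 15 and 19 (sham). Bulk RNA cannot tell fewer cells of a type from less RNA per cell. The 18S control, a ribosomal RNA measure of the RNA preparation, was below 11 on 4 of 9 arrays from sham-irradiated and 2 of 23 from irradiated wild-type hosts. In heterozygote hosts it was below 11 on 1 of 6 and 2 of 18 arrays. In wild-type hosts the low sham arrays were replicates 60, 61, 64 and 65 (9.28 to 9.62), and the low irradiated ones 57 (10.66) and 59 (9.46). Replicates 59 to 65 carry the highest numbers in the labels, which do not say whether those arrays shared a run. The part of such a block in the wild-type differences was not tested.

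No class I gene was called different between irradiated hosts' tumors and those of sham controls. In wild-type hosts 0 of 10 members passed a limma adjusted p of 0.05, where the background was 0% of all genes, and 0 of 10 had an unadjusted p under 0.05, where the background was 7.07%. In heterozygote hosts the counts were again 0 and 0 of 10, against backgrounds of 0% and 5.84%. The mean differences leaned upward: 8 of 10 members were above 0 in wild-type hosts (median log2 difference 0.11) and 8 of 10 in heterozygote hosts (median 0.16). Of all genes 49.3% and 51.8% were above 0, and the members moved together across tumors, so the 10 signs are not independent. Averaged over host genotypes all 10 members were above 0, between 0.03 (Tap2) and 0.26 (Psmb9), while 50.4% of all genes were. Marker genes of several cell types leaned as well, with 0 called: leukocytes had 5 of 5 above 0 (median 0.22), T cells and NK cells 9 of 9 (median 0.10) and macrophages 6 of 8 (median 0.15). Epithelial markers had 5 of 8 (median 0.20), fibroblast markers 0 of 7 (median -0.40) and endothelial markers 0 of 4 (median -0.17). Their part in the members' differences was not tested. In the same average 0 of 10 members were called against 0.00799% of genes, and 0 of 10 had an unadjusted p under 0.05 against 7.77%. The difference of the irradiation effect between host genotypes called 0 of 10 members, with backgrounds of 0% adjusted and 4.84% unadjusted. The lowest limma adjusted p of any member was 0.827 in wild-type hosts (Tap1), 0.932 in heterozygote hosts (H2-D1) and 0.999 for the difference between genotypes. With the 9 arrays of low 18S left out, the median member difference was 0.45 in wild-type hosts (9 of 10 above 0) and 0.21 in heterozygote hosts (10 of 10 above 0). The lowest limma adjusted p was then 0.522 and 0.941.

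**Figure D1:**
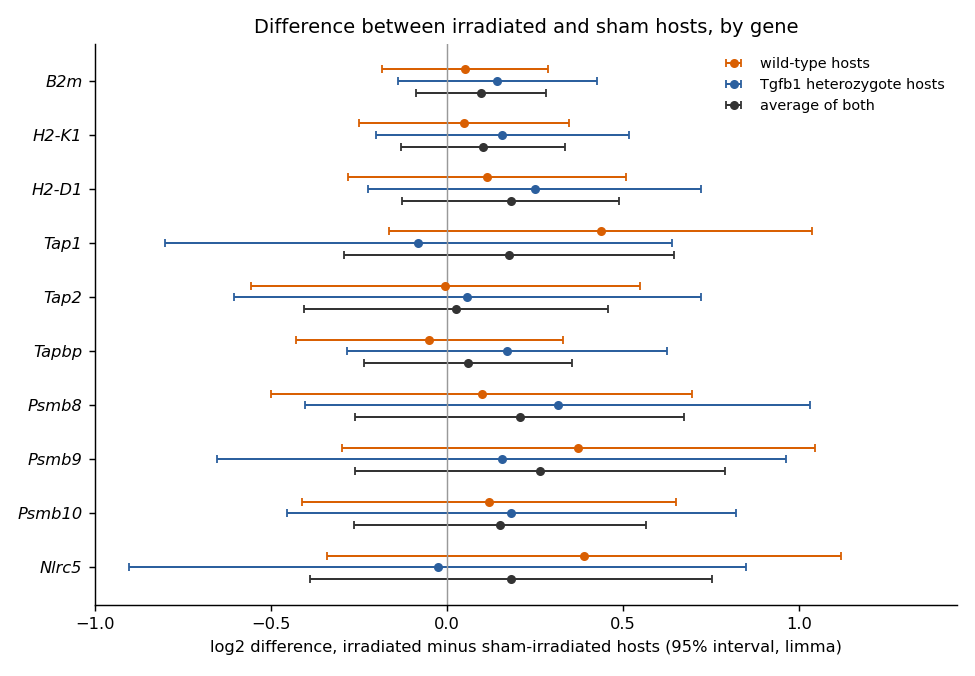
Log2 difference, tumors from irradiated hosts minus sham controls (x axis), for each class I gene (y axis), in wild-type hosts, in Tgfb1 heterozygote hosts and averaged over both, with 95% intervals from limma. Every interval includes 0, and the widest belong to Nlrc5, Psmb9, Tap1 and Psmb8.

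The class I complex at the cell surface is made of a heavy chain, encoded in these mice by genes such as H2-K1 and H2-D1, and the light chain encoded by B2m. B2m lies on chromosome 2 at 122147687 to 122153082, H2-K1 on chromosome 17 at 33996012 to 34000619 and H2-D1 on chromosome 17 at 35263094 to 35267497 (GRCm38.p6). For B2m and H2-D1 the 200 bases before the annotated start are shown, because these promoters are the textbook target of interferon, NF-kappa B and NLRC5 signals and because the 3 genes varied together across tumors. They are RefSeq GRCm38.p6 sequence, from the C57BL/6 reference; BALB/c carry another MHC haplotype and may differ from it. The span of H2-K1 reaches beyond both start sites for which RefSeq gave a window, 34000347 and 34000333, so for that gene only the 29 bases that hold both heavy chain motifs are shown, and they lie inside the span. Each sequence is written 5′ to 3′ on the strand of the gene, at chr2:122147487-122147686 (plus), chr17:34000429-34000457 (minus) and chr17:35262894-35263093 (plus). Capitals mark matches to an interferon-stimulated response element core (GAAANNGAA), a class I interferon consensus core (TTTCNNTTC), the enhancer A kappa B core (GGGATTCCC) and the X2 cyclic AMP response core (TGACG).
B2m: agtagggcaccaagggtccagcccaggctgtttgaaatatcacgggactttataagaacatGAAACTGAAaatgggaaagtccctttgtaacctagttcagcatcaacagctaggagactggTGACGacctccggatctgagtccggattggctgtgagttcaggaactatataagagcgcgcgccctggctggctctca
H2-K1: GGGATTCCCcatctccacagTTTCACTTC
H2-D1: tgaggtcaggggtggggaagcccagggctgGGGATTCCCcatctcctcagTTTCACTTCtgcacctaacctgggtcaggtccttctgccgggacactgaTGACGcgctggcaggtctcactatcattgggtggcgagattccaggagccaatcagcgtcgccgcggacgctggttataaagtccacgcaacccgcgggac
The motifs were chosen after the sequences had been seen and searched on both strands, in windows from 250 bases before to 50 after each start, of which RefSeq gave at least 1 for 8 of the 10 members (not Tap2 and Nlrc5). The kappa B core was found in 116 of 32851 windows (0.353%), and H2-K1 and H2-D1 each carried it, from -110 to -102 and from -170 to -162 relative to the start. For H2-K1 positions count from 34000347; from its other start that match runs from -124 to -116. The 2 promoters were identical at 88 of the 99 bases from that core to the ATTGG letters, the reverse complement of the Y box CCAAT. The class I interferon consensus core was in 7.52% of windows, and both heavy chain genes carried it, from -90 to -82 and from -150 to -142. B2m instead carried the response element core from -139 to -131, which 8.56% of windows held. TGACG was in 20.8% of windows and in those of B2m, H2-K1, H2-D1, Tap1 and Psmb9. CCAAT was in 37.4% and in the windows of the same genes and of Tapbp, which held no other motif searched. The windows of Psmb8 and Psmb10 held none of the motifs named so far. A match describes letters in the window only.

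B2m spanned a narrow range in most tumors. In wild-type hosts its lowest, median and highest levels were 13.45, 14.18 and 14.43 with sham irradiation (n = 9) and 12.87, 14.26 and 14.50 with irradiation (n = 23). In heterozygote hosts they were 13.52, 14 and 14.26 (n = 6) and 13.69, 14.08 and 14.40 (n = 18). The groups overlapped almost wholly, with 19 of 23 and 14 of 18 tumors from irradiated hosts inside the sham range. The mean difference was 0.05 (SE 0.12) in wild-type and 0.14 (SE 0.14) in heterozygote hosts, with limma adjusted p of 0.966 and 0.943.

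H2-K1 had lowest, median and highest levels of 13.20, 13.83 and 14.12 in sham-irradiated and 12.31, 13.90 and 14.32 in irradiated wild-type hosts. In heterozygote hosts it ran from 13.14 through 13.44 to 13.82 with sham irradiation and from 13.03 through 13.62 to 14.08 with irradiation. Irradiated groups reached both below and above the sham groups, and 13 of 23 and 13 of 18 of their tumors lay above the sham median. The differences were 0.05 (95% interval -0.25 to 0.35) and 0.16 (-0.20 to 0.52).

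The H2-D1 groups overlapped too, but less than those of B2m or H2-K1. Inside the sham range lay 10 of 23 tumors from irradiated wild-type hosts and 8 of 18 from irradiated heterozygote hosts. Its lowest, median and highest levels were 12.94, 13.41 and 13.69 in sham-irradiated and 11.24, 13.60 and 14.04 in irradiated wild-type hosts. The heterozygote groups had 12.67, 13.05 and 13.47 with sham irradiation and 12.42, 13.33 and 13.79 with irradiation. Above the whole sham range lay 10 of 23 tumors in wild-type and 8 of 18 in heterozygote hosts, and below it 3 and 2. The difference was 0.11 (SE 0.20) in wild-type and 0.25 (SE 0.24) in heterozygote hosts, with limma adjusted p of 0.951 and 0.932. Without tumor 16 of the irradiated wild-type group, the lowest in all 3 of B2m, H2-K1 and H2-D1, the wild-type difference of H2-D1 was 0.21.

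The heavy chain genes are near-identical copies of each other and of neighbouring class I genes, so their probe sets, most of them of the cross-matching x_at kind, cannot be assigned to 1 gene with certainty. All 8 probe sets of H2-D1 that passed the filter had averaged differences above 0, from 0.18 to 0.40, and all 4 of H2-K1 did, from 0.10 to 0.43. The probe sets with larger differences were dimmer ones. For H2-K1 the largest, 0.43, came from a probe set with a mean of 7.91 against 13.67 for the one that stands for the gene, and its limma adjusted p was 0.442 over all probe sets. For H2-D1 the probe set at 11.06 gave 0.40 (adjusted p 0.550) and the one at 6.16 gave 0.38 (adjusted p 0.430). Within each host genotype the passing probe sets of H2-D1 had r of 0.84 to 0.999 with the chosen one.

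**Figure D2:**
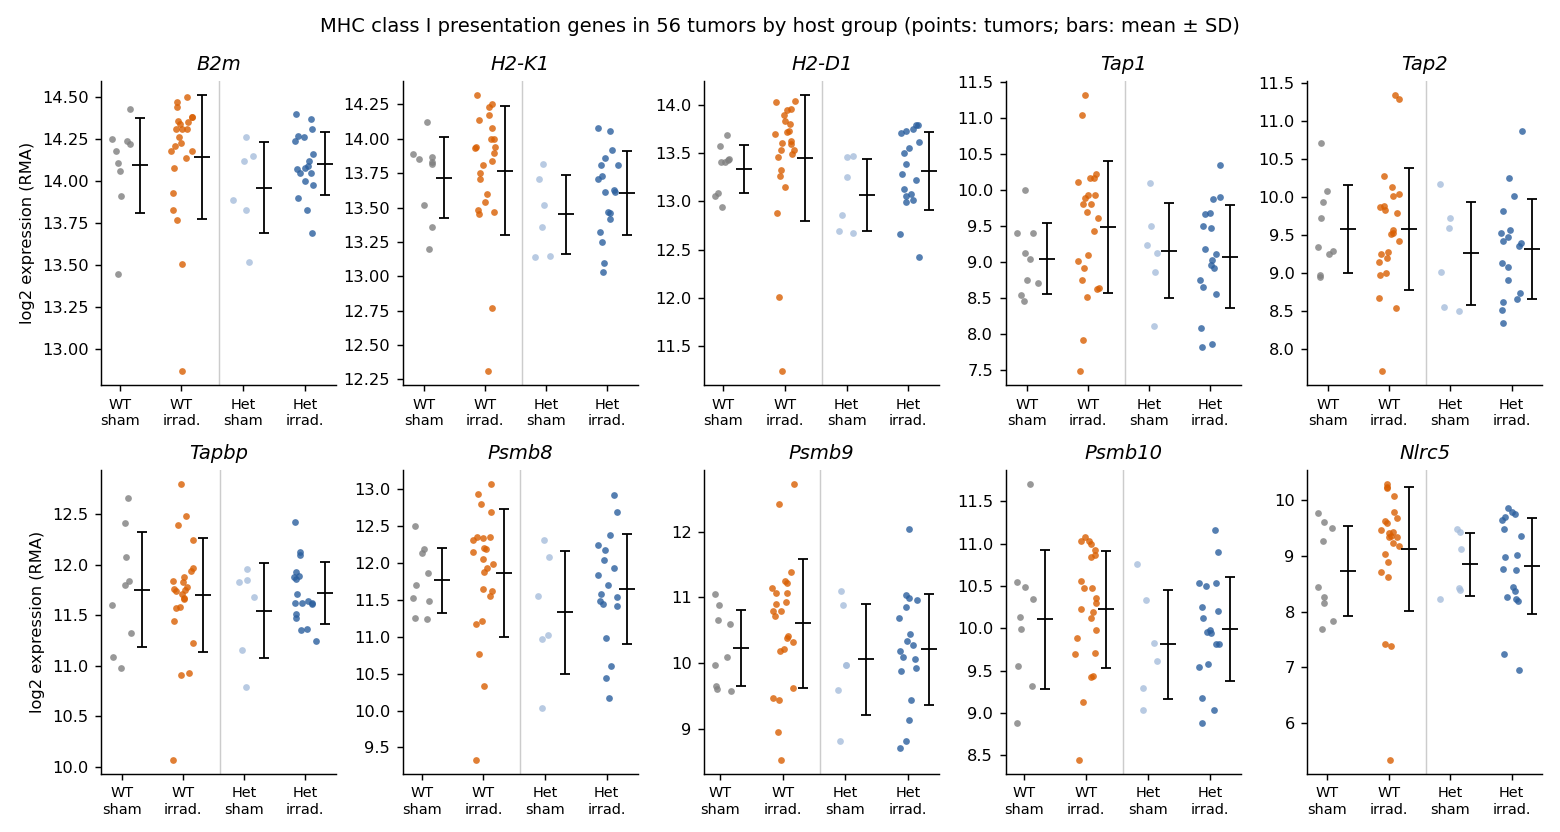
Log2 expression (y axis, RMA) of each of the 10 class I genes in tumors of the 4 host groups (x axis); points are tumors and bars the mean ± SD, with n = 9, 23, 6 and 18. Irradiated and sham groups overlap for every gene, and single tumors from irradiated wild-type hosts lie far below the rest for B2m, H2-K1, H2-D1, Tapbp and Nlrc5.

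The peptide transport and loading genes sit close together on chromosome 17. Tap1 (34187556 to 34197225) and Tap2 (34204479 to 34216321) encode the subunits of the peptide transporter, and Tapbp (33919478 to 33929290) encodes tapasin. Tap1 starts 225 bases from Psmb9, which runs the other way, so 1 short interval holds the promoters of a transporter subunit and an immunoproteasome subunit. It is shown from chr17:34187331-34187555 on the plus strand, which is the strand of Tap1, with the TGACG match in capitals; no match to the other motifs capitalised above was found in it.
Tap1-Psmb9 interval: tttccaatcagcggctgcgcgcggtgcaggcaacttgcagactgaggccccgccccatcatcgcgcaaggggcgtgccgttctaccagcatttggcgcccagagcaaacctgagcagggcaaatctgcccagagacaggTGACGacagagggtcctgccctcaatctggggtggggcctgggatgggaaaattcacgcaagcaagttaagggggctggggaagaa
Across tumors the genes on its sides had r of 0.96 in wild-type and 0.88 in heterozygote hosts, values centred on group means.

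Tap1 had the largest mean difference of the 10 members in wild-type hosts. Its lowest, median and highest levels were 8.46, 9.03 and 9.99 in sham-irradiated (n = 9) and 7.48, 9.69 and 11.32 in irradiated wild-type hosts (n = 23). In heterozygote hosts they were 8.11, 9.18 and 10.10 (n = 6) and 7.82, 9.06 and 10.34 (n = 18). In wild-type hosts 15 of 23 tumors from irradiated hosts lay inside the sham range, 6 above and 2 below it. The difference was 0.44 (SE 0.30, 95% interval -0.16 to 1.04) with a limma adjusted p of 0.827. In heterozygote hosts it was -0.08 (SE 0.36), and the difference between genotypes, -0.52 (SE 0.47), had a limma adjusted p of 0.999. Without the arrays of low 18S the wild-type difference of Tap1 was 0.78.

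Tap2, its partner subunit, did not share that lean. Its lowest, median and highest levels were 8.95, 9.34 and 10.70 in sham-irradiated and 7.70, 9.53 and 11.34 in irradiated wild-type hosts. For Tap2 in heterozygote hosts these were 8.50, 9.30 and 10.17, and 8.34, 9.37 and 10.87. The means differed by -0.01 (SE 0.28) and 0.06 (SE 0.33), and 18 of 23 and 15 of 18 tumors from irradiated hosts lay inside the sham range. Without the arrays of low 18S the wild-type value was 0.39.

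Tapbp ran from 10.98 through a median of 11.80 to 12.66 in sham-irradiated and from 10.07 through 11.75 to 12.80 in irradiated wild-type hosts. In heterozygote hosts its lowest, median and highest levels were 10.79, 11.76 and 11.96, and 11.24, 11.63 and 12.42. In both genotypes the irradiated median lay below the sham median, with 9 of 23 and 7 of 18 tumors from irradiated hosts above the latter. The mean differences were -0.05 (SE 0.19) and 0.17 (SE 0.23), with limma adjusted p of 0.978 and 0.959. A second, dimmer Tapbp probe set had r of 0.78 and 0.74 with the first and gave 0.10 and 0.32.

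Psmb8, Psmb9 and Psmb10 encode the catalytic subunits that replace Psmb5, Psmb6 and Psmb7 when the immunoproteasome is assembled. Psmb8 and Psmb9 lie beside the Tap genes (chromosome 17, 34198195 to 34201454 and 34182030 to 34187330), and Psmb10 lies on chromosome 8 (105935728 to 105938392). Psmb8 had lowest, median and highest levels of 11.24, 11.70 and 12.5 in sham-irradiated and 9.33, 12.06 and 13.08 in irradiated wild-type hosts. The heterozygote groups had 10.03, 11.29 and 12.32, and 10.17, 11.64 and 12.92. Irradiated groups spread to both sides of the sham range in wild-type hosts, with 5 tumors below and 4 above. The difference was 0.10 (SE 0.30) there and 0.31 (SE 0.36) in heterozygote hosts, with limma adjusted p of 0.974 and 0.958. The values of Psmb8 were 0.54 and 0.41 without the arrays of low 18S, and leaving out 1 array at a time moved the heterozygote value between 0.053 and 0.51. Its promoter window held an interferon gamma activated site (TTCNNNGAA, in 8.30% of windows) from -97 to -89, and no other member with a window had one.

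Psmb9 ran from 9.57 through a median of 10.09 to 11.05 in sham-irradiated and from 8.53 through 10.79 to 12.73 in irradiated wild-type hosts. In heterozygote hosts its lowest, median and highest levels were 8.82, 9.97 and 11.09, and 8.71, 10.22 and 12.04. Of the tumors from irradiated wild-type hosts 18 of 23 lay above the sham median, 8 of them above every sham tumor. The difference was 0.37 (SE 0.34, 95% interval -0.30 to 1.05) with a limma adjusted p of 0.890, and in heterozygote hosts 0.15 (SE 0.40). Without the arrays of low 18S the wild-type value was 0.80. The 3′ minus 5′ difference of control transcripts, a sign of RNA integrity, had a mean of 0.40 in sham-irradiated and 0.27 in irradiated heterozygote hosts; with it as a covariate the heterozygote value of Psmb9 was -0.16 and that of Psmb8 -0.08.

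Psmb10 stayed inside the sham range in nearly all tumors from irradiated wild-type hosts. Its lowest, median and highest levels were 8.88, 10.13 and 11.71 in sham-irradiated and 8.44, 10.30 and 11.08 in irradiated wild-type hosts, with 22 of 23 tumors inside the sham range. Heterozygote hosts had 9.03, 9.72 and 10.76, and 8.88, 9.96 and 11.16. The differences were 0.12 (SE 0.27) and 0.18 (SE 0.32), with limma adjusted p of 0.966 and 0.974. Without the arrays of low 18S the wild-type value was 0.51.

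The log2 difference between each immunoproteasome gene and the subunit it replaces was taken within each tumor and compared between groups; its own size carries no meaning, as it joins probe sets of unequal brightness. It gave no difference between groups beyond the spread between tumors. In wild-type hosts Psmb8 minus Psmb5 averaged -0.16 ± 0.50 (SD, n = 9) after sham treatment and -0.09 ± 0.88 (SD, n = 23) after radiation, with a two-sided exact permutation p of 0.834. The other 5 comparisons differed by -0.15 to 0.33 between irradiated and sham groups, with two-sided exact permutation p of 0.318 to 0.909 and an adjusted p of 0.909 for all 6. Without the arrays of low 18S the wild-type value was 0.52 for Psmb8 minus Psmb5 and 0.65 for Psmb9 minus Psmb6, with adjusted exact permutation p of 0.453 for both. The constitutive subunits were steadier: the SD within groups was 0.78 and 0.77 for Psmb8 against 0.27 and 0.19 for Psmb5 in wild-type and heterozygote hosts. For Psmb9 it was 0.89 and 0.84 against 0.28 and 0.26 for Psmb6. The r between a gene and its counterpart ran from 0.09 (Psmb8 and Psmb5, wild-type hosts) to 0.53 (Psmb9 and Psmb6, heterozygote hosts).

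Nlrc5, on chromosome 8 at 94434335 to 94527272, encodes the transactivator of class I promoters. Its lowest, median and highest levels were 7.69, 8.45 and 9.77 in sham-irradiated (n = 9) and 5.34, 9.35 and 10.30 in irradiated wild-type hosts (n = 23). In heterozygote hosts they were 8.22, 8.78 and 9.49 (n = 6) and 6.95, 8.88 and 9.85 (n = 18). In wild-type hosts 20 of 23 tumors from irradiated hosts lay above the sham median, but 15 of 23 were inside the sham range and 3 below it. The difference was 0.39 (SE 0.36, 95% interval -0.34 to 1.12) with a limma adjusted p of 0.895. In heterozygote hosts it was -0.03 (SE 0.44), with 9 of 18 tumors above the sham median. Without tumor 16 of the irradiated wild-type group the wild-type value of Nlrc5 was 0.56, and without the arrays of low 18S it was 0.91.

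Spread between tumors of one group differed widely among the members. The SD of Nlrc5 within groups was 1.04 in wild-type hosts, above that of 90.3% of genes, and 0.80 in heterozygote hosts, above 84.2%. B2m was among the steadier genes, with an SD of 0.35 (35.5th percentile) and 0.21 (8.36th percentile). The median gene had 0.42 and 0.38. Psmb9, Tap1 and Psmb8 followed Nlrc5 in wild-type hosts with 0.89, 0.83 and 0.78, and Psmb9 led in heterozygote hosts with 0.84. The first place of Nlrc5 rested on tumor 16 of the irradiated wild-type group: without it, left out after its values were seen, the SD was 0.78 for Nlrc5, 0.85 for Psmb9 and 0.79 for Tap1.

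The members varied together from tumor to tumor. Across the 45 pairs, r of values centred on group means had a median of 0.77 in 32 tumors of wild-type hosts, from 0.44 (B2m and Psmb10) to 0.96 (H2-K1 and H2-D1). In 24 tumors of heterozygote hosts the median was 0.69, from 0.17 (Tapbp and Psmb10) to 0.97 (Psmb8 and Psmb9). The mean over all pairs of genes was 0.0028 and 0.0019. Positive and negative r cancel in that mean, so it does not show how often other genes reach such values. Tap1 and Tap2 had 0.95 and 0.87, and H2-K1 and B2m 0.89 and 0.75. Psmb10 stood loosest, with a median r to the other members of 0.56 and 0.55. In heterozygote hosts Tapbp was also loose, with 0.24 to Nlrc5 and 0.23 to B2m. Without the 2 lowest tumors of wild-type hosts, left out after their values were seen, the median r was 0.66 and that of B2m and Psmb10 was 0.054. These values describe tumors that share array, normalization and cell makeup. The H2-K1 and H2-D1 probe sets are both of the cross-matching x_at kind, so each may read RNA of the other gene. The part of this in their r was not tested.

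**Figure D3:**
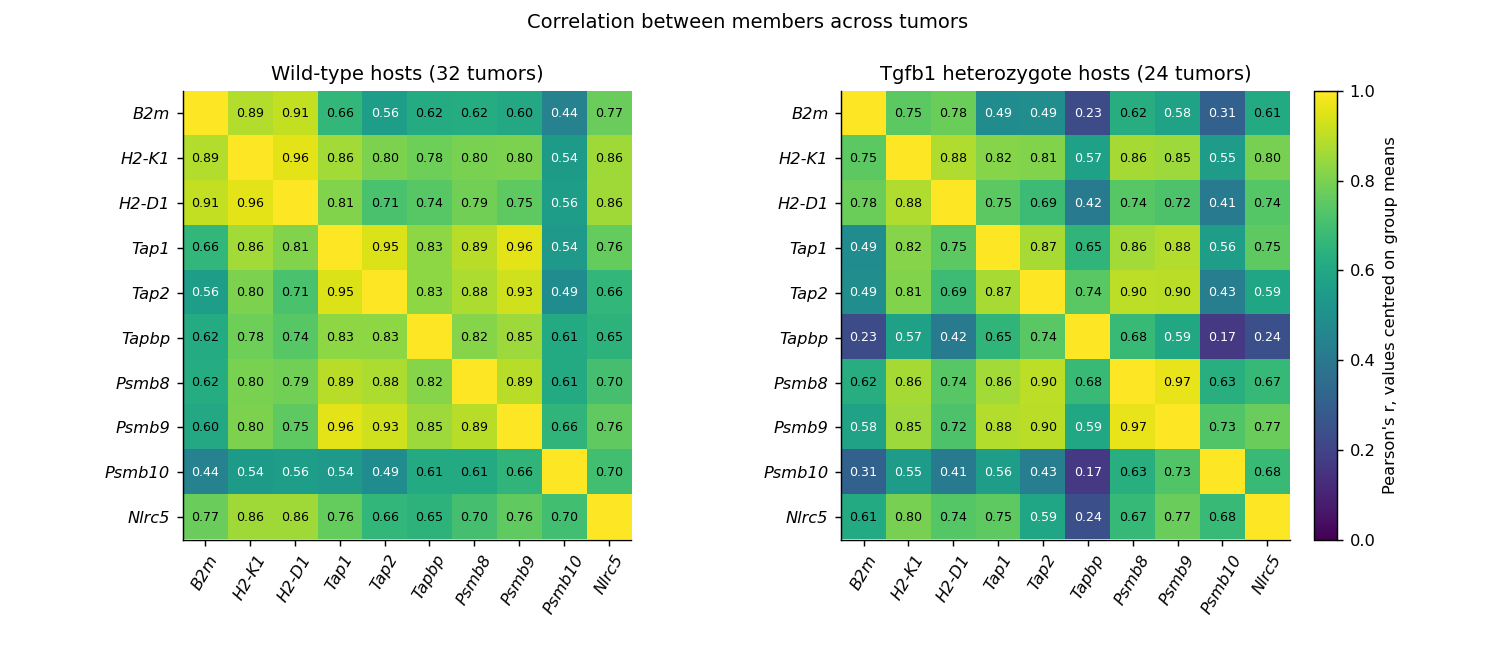
Pearson's r between each pair of class I genes across 32 tumors of wild-type hosts (left) and 24 of Tgfb1 heterozygote hosts (right), values centred on the group means; colour runs from 0 to 1. H2-K1 with H2-D1 and Tap1 with Psmb9 reach 0.96 in wild-type hosts, and most values in the Psmb10 row are lower. The H2-K1 and H2-D1 probe sets may cross-match.

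Single tumors stood at the ends of this shared variation. Each gene was centred on its group mean and scaled to an SD of 1, and the 10 were averaged, so a tumor's place is relative to its own group. Tumors 16 and 57 of the irradiated wild-type group were lowest, at -2.74 and -2.21, and the next was tumor 21 of that group at -0.83. By level, not centred, tumors 16 and 57 were both among the lowest 3 of 32 for all 10 genes. Tumor 16 had B2m at 12.87, H2-D1 at 11.24, Tapbp at 10.07 and Nlrc5 at 5.34, below the median of all values on the arrays (5.83). It also had the lowest Irf1 (8.84) and Ptprc (8.90) of the wild-type set and the lowest leukocyte marker mean, 8.70, with Epcam at 12.74 and 18S at 13.25. Tumor 57 was lower still for Tap1 (7.48), Tap2 (7.70), Psmb8 (9.33) and Psmb9 (8.53). Its leukocyte mean was 10.55 and Ptprc 11.37, while its 18S was 10.66 and its 3′ minus 5′ difference, 0.91, was the highest of the set. The part of RNA quality and cell makeup in these levels was not tested.

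At the other end of the wild-type set were tumors 12 (1.53), 24 (1.46) and 44 (0.94) of the irradiated group. Tumor 24 was among the highest 3 for all 10 genes, with Tap2 at 11.29, Psmb9 at 12.42 and Nlrc5 at 10.30. It also had the highest T cell and NK marker mean (7.89, where the set's median was 5.57) and the highest Cd8a (7.20). Tumor 12 had Tap1 at 11.32, Psmb9 at 12.73 and a T cell and NK mean of 7.07, but tumor 44 had 5.46. In the heterozygote set the lowest were tumors 50 (-1.42), 26 (-1.33) and 29 (-1.23) of the irradiated group. Tumor 29 combined H2-D1 at 12.66 with the highest leukocyte and macrophage means, 10.89 and 12.24, and the lowest epithelial mean, 9.35. The highest were tumors 32 (1.33) and 51 (1.11) of the irradiated and 58 (1.08) of the sham group. By level, not centred on group means, tumor 58 was among the highest 3 of 24 for 3 genes. Tumor 55 of the irradiated group (0.99) was so for 5. Tumor 32 had Psmb9 at 12.04 and Tap2 at 10.87 with the lowest leukocyte mean, 8.85, and Ptprc at 9.17.

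**Figure D4:**
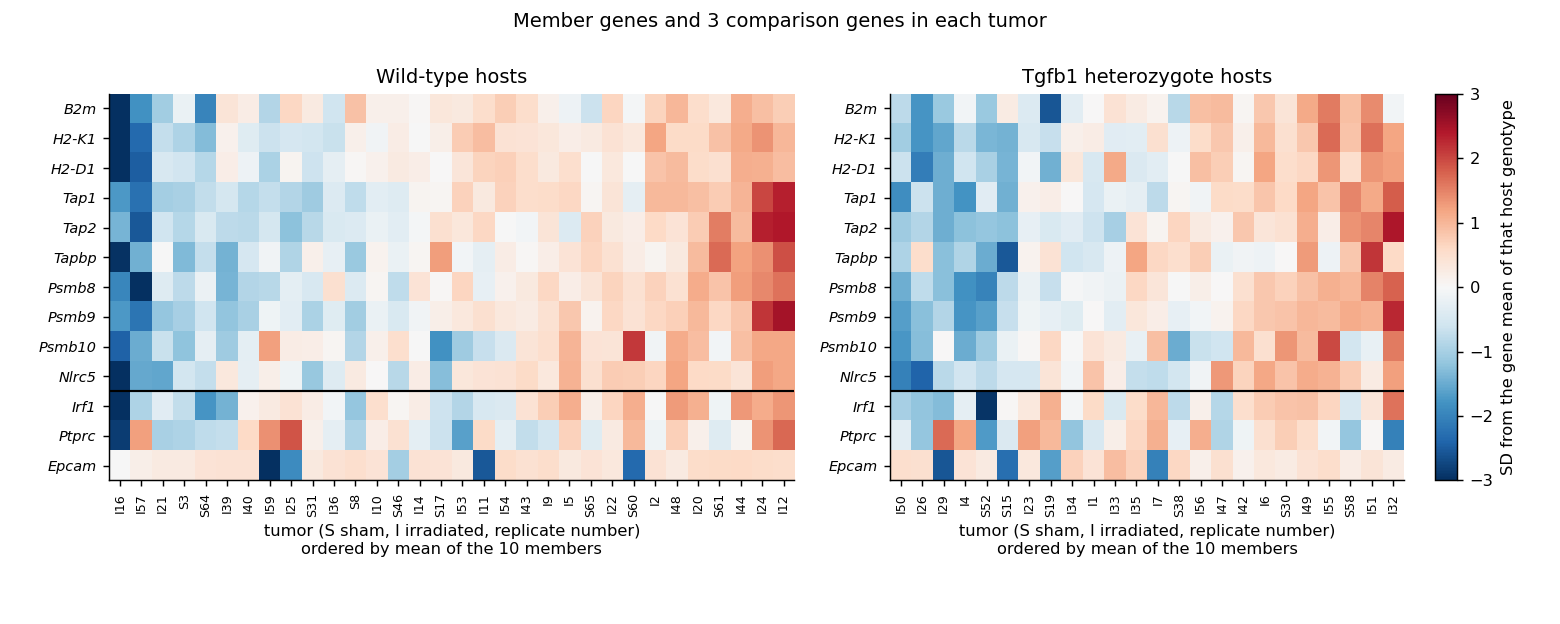
Levels of the 10 class I genes and, below the line, Irf1, Ptprc and Epcam (rows) in each tumor (columns, S sham, I irradiated), as SD from the gene's mean in that host genotype. Tumors are ordered by the mean of the 10 taken after centring on group means, while the colours are not centred on group means. Tumors 16 and 57 of irradiated wild-type hosts are low in all 10 rows, and the Irf1 row follows the order more closely than the Ptprc or Epcam row.

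The class I genes were set against Nlrc5, against Irf1, an interferon-induced activator of these promoters, and against Ptprc (the leukocyte antigen CD45), Cd8a (the T cell coreceptor that binds class I) and Epcam, over 98 pairs in all. The share of all genes passing with each partner was not computed, so the counts of members passing cannot be set against a background. Irf1 had an r of 0.54 to 0.88 with the 10 members in wild-type hosts, rho of 0.37 to 0.90, and 10 of 10 passed a Benjamini-Hochberg adjusted permutation p of 0.05 by r and 9 of 10 by rho, without B2m (adjusted permutation p 0.0745). In heterozygote hosts r was 0.30 to 0.72 and 7 of 10 passed by r, without B2m, H2-D1 and Tapbp, and 6 of 10 by rho, where Tap1 had an adjusted permutation p of 0.0573. Psmb10, the loosest member, had the highest r with Irf1 in wild-type hosts, 0.88 (adjusted permutation p 0.000163), with rho of 0.90 (adjusted permutation p 0.000196). In heterozygote hosts Psmb10 and Psmb9 both had r = 0.72 (adjusted permutation p 0.000588 and 0.000408). Their rho was 0.80 and 0.69 (adjusted permutation p 0.000327 and 0.00288). Without the 2 tumors farthest from the Irf1 median the r of Psmb10 was 0.89 and 0.82, and that of Psmb9 in heterozygote hosts 0.67. For B2m in wild-type hosts r was 0.66 with them and 0.30 without, so it rests largely on those tumors.

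Nlrc5 had r of 0.65 to 0.86 with the 9 other members in wild-type hosts, and 9 of 9 passed by both r and rho. In heterozygote hosts r was 0.24 to 0.80 and 8 of 9 passed by both. The exception was Tapbp, with r = 0.24 (adjusted permutation p 0.321) and rho = 0.21 (adjusted permutation p 0.42). H2-K1 and H2-D1 were highest in wild-type hosts, both at 0.86, and 0.76 and 0.74 without the 2 tumors farthest from the Nlrc5 median. Their probe sets may cross-match, so these are not separate readings of 2 genes with certainty. H2-K1 was again highest in heterozygote hosts, at 0.80 (0.72 without the 2 farthest tumors).

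Ptprc passed by r with 3 of 10 members in wild-type hosts, and by rho with Psmb10 alone. The 3 were Psmb10 (r = 0.65, rho = 0.62), Nlrc5 (r = 0.47, rho = 0.30) and Tapbp (r = 0.42, rho = 0.26). Without the tumors farthest from the Ptprc median the last 2 had r of 0.22 and 0.29, and Psmb10 kept 0.57. In heterozygote hosts 0 of 10 passed, with r from -0.31 to 0.09. Cd8a passed with 4 of 10 members in each set by r, Tap1 and Psmb9 among them in both. It passed with 4 of 10 by rho as well, but in wild-type hosts only 2 of the 4 passed by both, and Tap1 (rho 0.36, adjusted permutation p 0.0791) was not among them. Cd8a was near the median of all values in most tumors, with group means of 5.49 to 5.84, and in wild-type hosts its r with members was 0.05 to 0.35 without tumors 24 and 12. Epcam passed with 0 of 10 members in wild-type hosts by Pearson's r (-0.24 to 0.24). Its rho there ran from 0.02 to 0.55 and passed for 7 of 10, so the measures differ. In heterozygote hosts only H2-D1 passed with Epcam (r = 0.48, adjusted permutation p 0.0442; rho = 0.30, adjusted permutation p 0.225), and its r was 0.27 without the 2 farthest tumors. The differences between host genotypes in these correlations were not tested.

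The marker lists give the same readout by cell type, as r with the mean of the 10 members, values centred on group means. The leukocyte list (5 of 5 measured) had 0.52 in wild-type and -0.09 in heterozygote hosts. Its mean level ran from 9.79 to 11.27 and from 8.70 to 11.34 in sham-irradiated and irradiated wild-type hosts, and from 9.03 to 10.49 and 8.85 to 10.89 in heterozygote hosts. The T cell and NK list (9 of 13 measured; Cd8b1, Lck, Prf1 and Ncr1 were dim or not measured) had 0.47 and 0.08. The epithelial list (8 of 8) had 0.25 and 0.56, macrophages (8 of 8) 0.27 and -0.27, fibroblasts (7 of 7) -0.09 and -0.26. Dendritic cells (3 of 5) had 0.49 and 0.12, B and plasma cells (3 of 6) 0.31 and 0.05, endothelium (4 of 4) 0.0011 and -0.36 and adipocytes (3 of 4) 0.19 and 0.17. The 3′ minus 5′ difference had -0.44 and -0.32, and 18S had 0.04 and 0.31. In wild-type hosts tumor 57, with a member mean of -2.21, had a 3′ minus 5′ difference of 0.91, where the median was 0.19. Tumor 16, with a member mean of -2.74, had a leukocyte mean of 8.70, where the median was 10.45. No r without these tumors is given for the lists and controls. The part of any of these measures in the level of the members was not tested.

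Outside the pathway, the genes whose pattern was most like the class I mean are known interferon targets. Likeness was r with the mean of the 10 scaled members, with values centred on group means, taken as the lower of the r in 32 and 24 tumors. The 10 highest non-members were Parp14 (0.90 in wild-type, 0.94 in heterozygote hosts), Parp9 (0.87, 0.93), Dtx3l (0.87, 0.90), Oas1a (0.87, 0.87), Phf11d, Igtp, Irgm2, Oasl1, Ddx58 and Sp100 (0.83, 0.85). Parp9 and Dtx3l encode partner proteins of the antiviral response, Oas1a and Oasl1 belong to the oligoadenylate synthetase family, Igtp and Irgm2 are interferon-inducible GTPases and Ddx58 encodes the RNA sensor RIG-I. None of them was called for irradiation in any comparison. Among members, whose own values enter the mean, H2-K1 was highest of all genes (0.94, 0.95), while B2m, Psmb10 and Tapbp came 67th, 88th and 98th. Irf1 came 93rd (0.78, 0.65).

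The gene lists placed this pattern further. The type I interferon targets (18 of 20 measured) had a median r with the member mean of 0.83 and 0.81, from 0.62 to 0.90 and 0.67 to 0.94, with Ifih1, Mx1, Oasl1 and Oasl2 among them. The interferon gamma targets (14 of 17) had 0.76 and 0.69, from 0.14 to 0.85 and 0.13 to 0.89. Among them were the chemokine genes Cxcl9 (0.77, 0.69) and Cxcl11 (0.75, 0.66), and the lowest were Ido1 (0.14, 0.32) and Ciita (0.40, 0.13). MHC class II and its helpers (8 of 11) had 0.54 and 0.23. All genes tested, members included, had a median of 0.0097 and 0.0049, from -0.72 to 0.94 and -0.81 to 0.96. The constitutive proteasome and PA28 list (18 of 19) had 0.17 and 0.33, and the loading and trimming genes (10 of 11), such as the chaperones Canx and Calr, had 0.14 and -0.27. Both lists were wide. The proteasome and PA28 list ran from -0.27 to 0.74 and from -0.29 to 0.81, with Psme1 highest in both host genotypes. The loading and trimming list ran from -0.25 to 0.72 and from -0.55 to 0.87, with Tapbpl highest in both, and Erap1 had 0.66 and 0.70. Other class I heavy chains (6 of 20 measured) had 0.15 and 0.13, but within that list H2-T24 had 0.78 and 0.62, and Fcgrt, the neonatal Fc receptor, -0.14 and -0.59.

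**Figure D5:**
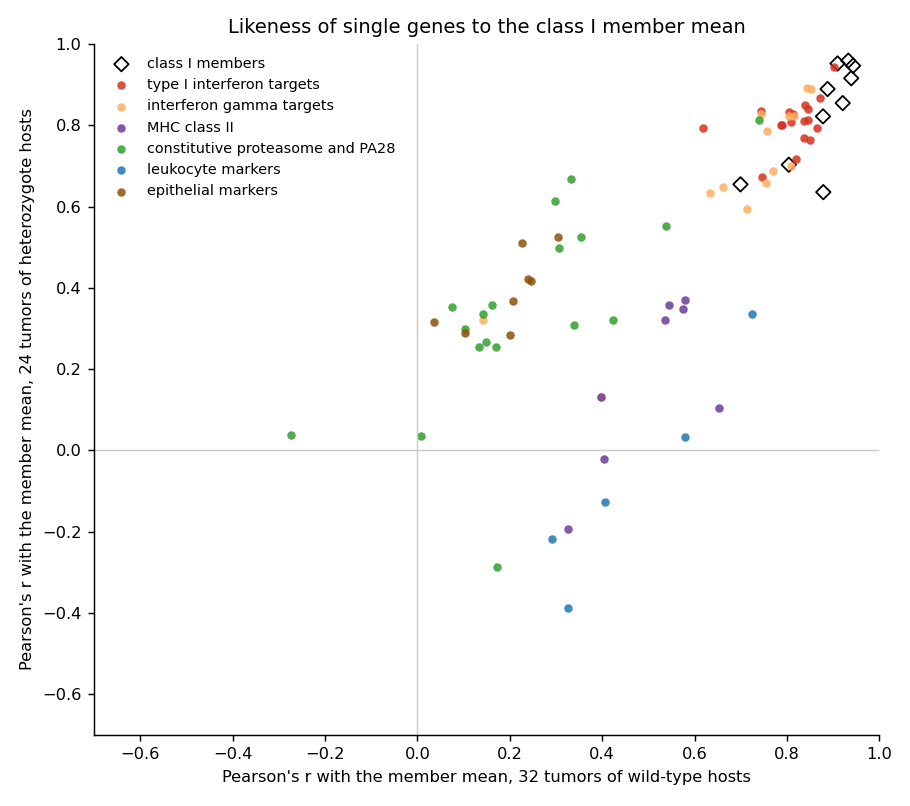
Pearson's r of single genes with the mean of the 10 class I members, in 32 tumors of wild-type hosts (x axis) and 24 of heterozygote hosts (y axis), by gene list. Values were centred on group means. Diamonds are the members, whose own values enter the mean. Most interferon targets lie among or close to the members at the upper right, but Ido1 and Ciita lie well below them. Epithelial genes and most constitutive proteasome genes lie nearer 0, while Psme1 lies among the members. Leukocyte markers are lower in heterozygote than in wild-type hosts.

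With respect to host irradiation, 0 genes of these lists were called in any comparison by limma. Averaged over host genotypes the type I interferon targets had 8 of 18 above 0 (median -0.02) and the interferon gamma targets 12 of 14 (median 0.22), where 50.4% of all genes were above 0. The interferon gamma targets had 14 of 14 above 0 in wild-type hosts (median 0.35) and 9 of 14 in heterozygote hosts (median 0.08). Cxcl9 differed by 0.98 in wild-type hosts (limma adjusted p 0.707) and -0.15 in heterozygote hosts. MHC class II had 8 of 8 above 0 in both, with medians of 0.30 and 0.40, and H2-Eb1 differed by 0.36 and 0.54. The constitutive proteasome list had 17 of 18 above 0 on average (median 0.08), and 3 of 18 had an unadjusted p under 0.05 upward where 3.75% of all genes did. The lowest was Psma2, an alpha ring subunit, with 0.31 and a limma adjusted p of 0.144. Fcgrt was lower by -0.53 on average (limma adjusted p 0.614). The members, with 10 of 10 above 0 and a median of 0.16, lay between the class II and the constitutive proteasome genes, and none of these lists was tested as a set.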

How the data were processed

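Total RNA of 56 tumors was hybridised to Affymetrix 3′ expression arrays, from 100 ng each, per the labels' protocols. The values the authors deposited are RMA output in log2, 1 per probe set and array, per the submitters' processing notes, which give no version. The platform annotation gave 1 symbol for 34958 of 45101 probe sets, which were used, and several for 932; 9211 were unnamed here. Probe sets above the median of all values (5.83) on 6 or more arrays were tested, and a gene was represented by the one of highest mean. Group means were fitted with limma 3.58.1 (R 4.3.3; lmFit, eBayes) over the 56 arrays together, with Benjamini-Hochberg adjustment over 12508 genes. Within-tumor differences of proteasome genes were compared by exact permutation tests, and correlations by 100000 permutations of values centred on group means (98 pairs). The limma fit and the exact permutation test were checked on simulated data. Members, gene lists and marker lists were chosen with earlier results of these data known. Named genes were the 10 members, 7 partner genes (1 more that was listed is not used here), up to 4 genes per list with the lowest averaged p, the 10 non-members most like the member mean, and the 3 lowest and 3 highest tumors per host genotype. Outside this rule, Ido1, Psme1, Tapbpl and Erap1 were named for their r with the member mean. The number of arrays limits the precision. Alternatives were other filters, probe set choices, normalization, weights, covariates and fits, arrays of low 18S left out and each array left out in turn. Plots were drawn with matplotlib 3.10.9.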

Additional observations from a re-analysis of the deposited data

How the results depend on the processing

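No class I gene was called under any alternative: over 2660 values of single members the lowest limma adjusted p was 0.431. Their signs depended on the setting in 35 cases beside those of single arrays. In wild-type hosts Tapbp was 0.025 with the mean of its probe sets. With 18S as a covariate B2m was -0.13, H2-K1 -0.056, H2-D1 -0.094 and Psmb8 -0.082, and without the arrays of low 18S B2m was -0.037, Tap2 0.39 and Tapbp 0.17. In heterozygote hosts array weights gave -0.14 for Tap2, -0.00956 for Psmb9 and 0.036 for Nlrc5. The 3′ minus 5′ covariate gave -0.21 for Tap2, -0.076 for Psmb8 and -0.16 for Psmb9, and leaving out low 18S gave 0.071 for Tap1 and 0.097 for Nlrc5. For the difference between genotypes, array weights gave -0.017 for H2-K1, -0.073 for H2-D1, -0.12 for Tap2, -0.097 for Psmb8 and -0.11 for Psmb10. The 3′ minus 5′ covariate gave -0.028 for B2m, -0.034 for H2-K1, -0.078 for H2-D1, -0.21 for Tap2, -0.18 for Psmb8 and -0.088 for Psmb10. The 18S covariate gave -0.12 for Psmb10, and leaving out low 18S gave -0.27 for Tap2, -0.13 for Psmb8 and -0.16 for Psmb10. Averaged over genotypes Tap2 was -0.077 with array weights, -0.11 with the 3′ minus 5′ covariate and -0.012 with the 18S covariate, which also gave -0.013 for B2m. The cause was not tested.

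Leaving out each array in turn changed the sign of B2m (-0.031 to 0.11), H2-K1 (-0.017 to 0.11), Tap2 (-0.086 to 0.14), Tapbp (-0.15 to 0.063) and Psmb10 (-0.034 to 0.32) in wild-type hosts. In heterozygote hosts it did so for Tap1 (-0.29 to 0.11), Tap2 (-0.095 to 0.24), Psmb9 (-0.092 to 0.36) and Nlrc5 (-0.15 to 0.10). Values of one sign there still moved widely, B2m from 0.056 to 0.20, Tapbp from 0.020 to 0.25, Psmb8 from 0.053 to 0.51 and Psmb10 from 0.027 to 0.37, and both ends came from leaving out 1 of the 6 sham arrays. The difference between genotypes ran from -0.089 to 0.25 for Tap2, -0.045 to 0.41 for Psmb8 and -0.14 to 0.25 for Psmb10, and the average from -0.050 to 0.12 for Tap2 and -0.015 to 0.12 for Tapbp. Psmb8 minus Psmb5 ran from -0.043 to 0.16 and Psmb10 minus Psmb7 from -0.16 to 0.19 in wild-type hosts. In heterozygote hosts Psmb9 minus Psmb6 ran from -0.27 to 0.012 and Psmb10 minus Psmb7 from -0.033 to 0.23. Without the arrays of low 18S the wild-type values were 0.52 for Psmb8 minus Psmb5, 0.65 for Psmb9 minus Psmb6 and 0.24 for Psmb10 minus Psmb7.

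Among all genes, irradiation in wild-type hosts called 1 probe set with all probe sets tested and 2 genes with the mean of probe sets, where the fit as reported called 0. Averaged over genotypes, where 1 gene was called, the count was 15 with all probe sets, 19 with array weights, 0 with the 3′ minus 5′ or the 18S covariate and 0 to 2 with each array left out in turn. The alternatives gave the members no such call. No paired analysis was possible because the replicate numbers in the labels do not recur across groups.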
